A study of Mus musculus with 6 samples.

Results

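The 9 genes described here are Cd4, the coreceptor of helper T cells, and the transcription factors Zbtb7b, Runx1, Gata3, Bcl11b, Foxp3, Satb1, Myb and Ets1, which set up and hold T cell identity. They were taken by name from the 27179 gene numbers of the count table, and all 9 were found. The study sequenced RNA of gBT-I CD8+ T cells in 6 libraries. The transgenic T cell receptor of gBT-I mice recognises gB498-505, a peptide from glycoprotein B of herpes simplex virus. Whole spleen cell suspensions of these specific pathogen free mice were activated with the peptide and lipopolysaccharide, split and supplied with IL-2 between days 2 and 5, and collected at day 6. The 3 control libraries came from cultures without butyrate and the 3 butyrate libraries from cultures given it from day 3. Butyrate is a short-chain fatty acid of gut bacteria that inhibits histone deacetylases, and its dose is not in the labels used here. The labels state no sort or purity, and no age or sex. Whether a replicate is its own mouse or culture is not stated, so p-values measure only the spread between these libraries, which may be technical.

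In the thymus, cells that carry both coreceptors become either CD4 helper or CD8 cytotoxic T cells. Zbtb7b (ThPOK) drives the CD4 fate and holds back CD8 genes, whereas Runx3 with its partner Cbfb silences Cd4 and Zbtb7b in the CD8 lineage. Gata3 acts upstream of Zbtb7b, Satb1 organises chromatin at these loci, Bcl11b secures T lineage commitment, and Runx1, Myb and Ets1 serve T cell development more broadly. Foxp3 defines regulatory T cells.

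Library totals ran from 5383380 to 6244350 counts, and 3 counts, the limit that a count of 0 allows, came to 0.487 to 0.556 CPM. CPM, the usual per-library normalisation of read counts, was taken here on library totals adjusted by TMM factors. Of the markers listed for the labelled CD8+ T cells, 12 of 12 stood above 3 counts in every library. Apart from Cd8a and Cd8b1 these are genes of T cells in general, so they do not measure purity. Cd8a ran from 379 to 505 CPM and Trac from 1844 to 3209 CPM over the 6 libraries. Of 11740 genes tested, 45.9% were called, that is, had an adjusted p under 0.05 in edgeR's quasi-likelihood test with Benjamini-Hochberg adjustment. Called genes were higher with butyrate in 23.5% of all genes tested and lower in 22.5%. Under upper quartile scaling 61.8% of the called genes were higher, against 51.1% with TMM scaling. That scaling moved the median log2 fold change of all genes tested to 0.09 from 0.003, and changes are given with TMM scaling.

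Cd4, Zbtb7b and Myb rose with butyrate, Runx1, Gata3, Bcl11b and Satb1 fell, and Ets1 was not called. Foxp3 had too few counts to be tested. So 7 of the 8 members tested were called, 3 higher and 4 lower, beside 45.9% of all genes tested. Cd4 could be tested only because its butyrate counts were high, and of the other 7 members tested 2 were higher and 4 lower. The median log2 fold change was -0.32 over the 8, with Cd4 included at 2.82, and 0.003 over all genes tested. The control and butyrate libraries did not overlap for 6 of the 8, Cd4 among them, beside 57.1% of all genes tested. Over the 15 alternative settings 5 to 7 members were called, with 5 when butyrate replicate 2 was left out. In RNA from whole cultures, fewer cells of a type and less RNA per cell cannot be told apart.

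**Figure D1:**
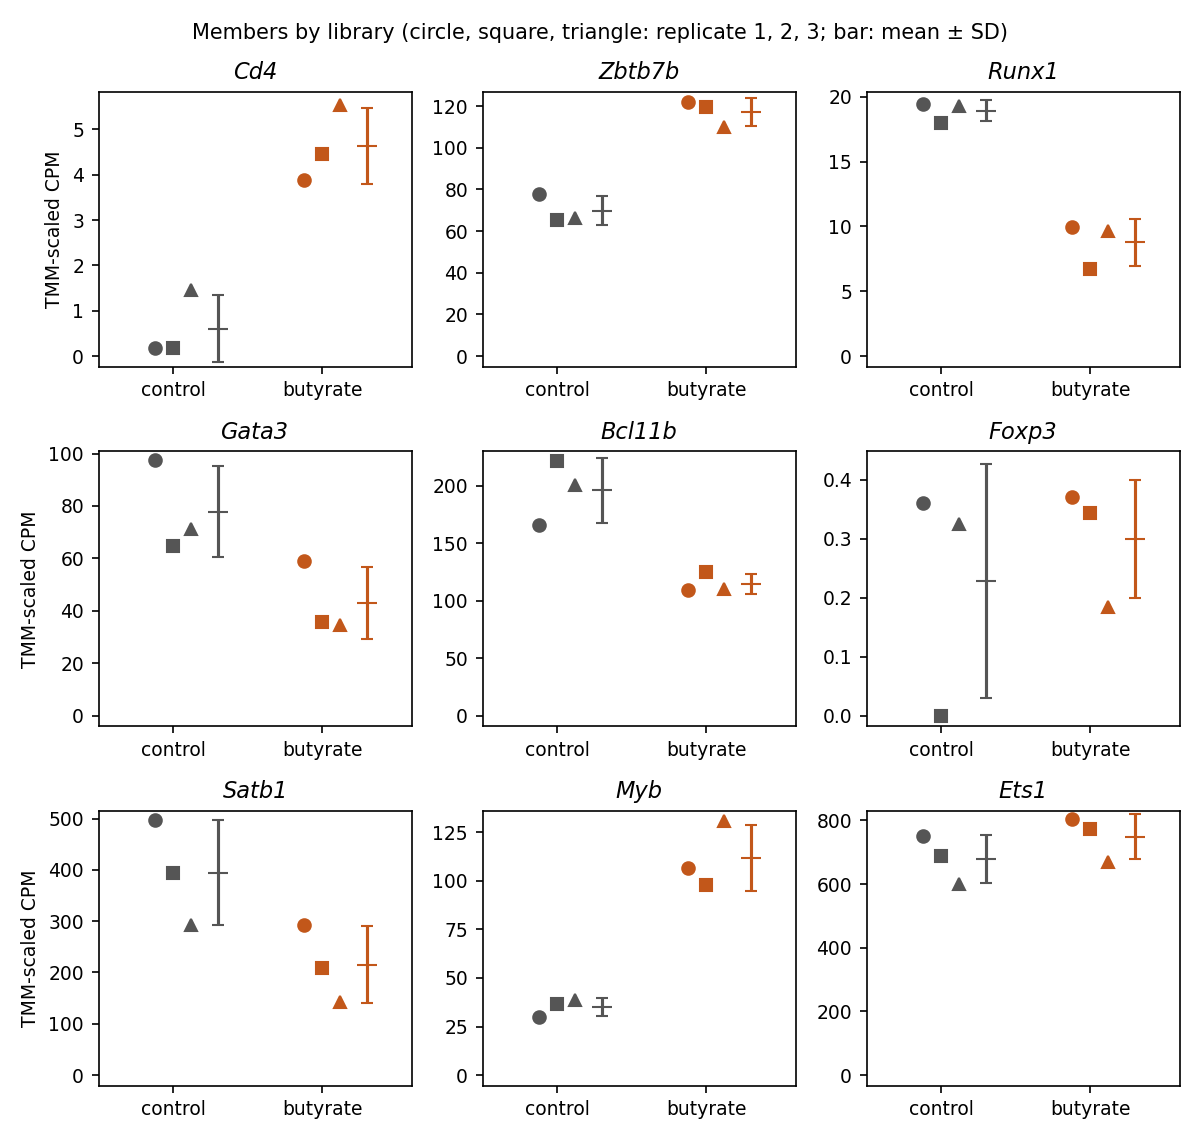
TMM-scaled CPM (vertical axis, linear) of each member in the 3 control (grey) and 3 butyrate (orange) libraries, with circles, squares and triangles for replicates 1, 2 and 3 and bars for the mean and SD. Cd4, Zbtb7b and Myb lay higher in all 3 butyrate libraries, Runx1, Gata3 and Bcl11b lower, and Satb1, Ets1 and Foxp3 overlapped.

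RefSeq promoter windows of 250 bases before a transcript start were found for 7 of the 9 members, 14 windows in all on GRCm38.p6, the assembly of mm10. Cd4 and Ets1 had no entry. The windows below are shown because they belong to members that were called under every alternative run and overlap no GENCODE exon. Each reads 5' to 3' on the gene's strand, the minus strand in all cases, and capitals mark letters known to be bound by RUNX factors.
Zbtb7b: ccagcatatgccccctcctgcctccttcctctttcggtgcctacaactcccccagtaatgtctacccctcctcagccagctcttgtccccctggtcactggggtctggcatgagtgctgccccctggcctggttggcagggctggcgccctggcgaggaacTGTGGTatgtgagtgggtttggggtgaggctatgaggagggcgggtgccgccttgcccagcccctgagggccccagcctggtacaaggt
Runx1: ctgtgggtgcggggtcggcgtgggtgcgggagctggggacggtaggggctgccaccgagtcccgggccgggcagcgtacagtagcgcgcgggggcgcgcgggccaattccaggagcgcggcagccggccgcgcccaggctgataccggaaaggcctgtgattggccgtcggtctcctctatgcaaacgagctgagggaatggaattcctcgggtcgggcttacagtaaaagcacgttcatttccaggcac
Myb: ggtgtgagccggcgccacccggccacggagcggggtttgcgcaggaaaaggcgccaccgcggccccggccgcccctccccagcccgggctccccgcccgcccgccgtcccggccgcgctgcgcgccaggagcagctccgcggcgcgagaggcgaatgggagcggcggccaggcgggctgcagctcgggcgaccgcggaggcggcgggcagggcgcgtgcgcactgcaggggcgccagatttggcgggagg
The Zbtb7b window (chr3:89387672-89387921) is that of the start nearer the gene's 3' end, and it holds TGTGGT, the RUNX letters, beginning 89 bases before the start. TGTGGT was found on either strand in 14% of all 32851 windows. The Runx1 window (chr16:92697330-92697579) also belongs to the start nearer the 3' end, and the Myb window (chr10:21160985-21161234) to its one listed start. Neither holds TGTGGT. The other letters searched, on both strands, were in none of these 3 windows. They were AGATAA for GATA factors, found in 9.99% of all windows, and CCGGAAG for ETS factors, found in 6.91%. Further letters were CAACTG for MYB, found in 11.1%, CTTTGA for TCF and LEF factors, found in 13.8%, and CACGTG, an E box, found in 6.02%. No match overlapped another motif. The Myb window was 81.2% GC with 40 CG pairs and the Runx1 window 67.6% GC with 27. The Zbtb7b window was 64.8% GC with 5 CG pairs, against medians of 52.4% and 6 over all windows. Such matches describe the letters only.

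Cd4 encodes the coreceptor that binds class II molecules and that CD8+ T cells normally keep silent (gene 12504, chromosome 6, 124864693 to 124888247, mm10). It had 1, 1 and 9 counts in the control libraries and 21, 26 and 30 in the butyrate libraries. These counts correspond to 0.180, 0.185 and 1.46 CPM without butyrate and 3.88, 4.47 and 5.54 CPM with it. All 3 butyrate libraries were above all controls, and control replicate 3 held most of the control counts. The mean went from 0.608 ± 0.737 to 4.63 ± 0.842 CPM (SD, n = 3), and edgeR gave a log2 fold change of 2.82 (SE 0.55, adjusted p = 0.00322). Summed counts scaled to depth differed 7.19-fold, with bounds of 3.80 and 15.0 (exact 95% interval, for counting error alone). Leaving out control replicate 3 gave 4.51 on the log2 scale (adjusted p = 0.000639) and a summed ratio of 25.3, from 2 against 77 counts (interval 6.77 to 213). Cd4 passed the filter on low counts through its butyrate libraries alone, as did 808 of the 11740 genes tested. Among all genes tested, 307, Cd4 included, rose by at least as much.

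Cd4 RNA stayed a small quantity beside that of the CD8 coreceptor. Per kilobase of exon it stood at 0.137% ± 0.178 of Cd8a in the controls and at 0.980% ± 0.295 with butyrate (SD, n = 3). The within-library log2 ratio of Cd4 to Cd8a counts was -10.77, -10.83 and -7.96 without butyrate and -6.79, -6.75 and -6.07 with it. The groups did not overlap and differed by 3.32, or by 4.26 without control replicate 3, 3.70 with no count added and 2.66 with 2 counts added in place of 0.5. The 3.32 had an exact two-sided permutation p of 0.1, the smallest that 3 against 3 allows. Cd8a itself was at 454 ± 62.1 CPM and 436 ± 55.1 CPM, and Cd8b1, the other CD8 chain, at 265 ± 67.2 and 253 ± 30.6. Neither was called (adjusted p = 0.741 and 0.777 by edgeR), and both estimates changed sign under upper quartile scaling and with some libraries left out.

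Markers of other cells that the cultures could hold moved in part. Of 14 macrophage and dendritic cell markers, 7 were tested and 4 were higher, with none lower, beside 23.5% of all genes tested that were higher. Zbtb46, one of the 4, passed the filter through its butyrate libraries alone. Itgam, an integrin chain, stood at 4.08 ± 0.682 and 44.1 ± 9.50 CPM, H2-Ab1, a class II chain, at 8.95 ± 0.281 and 38.3 ± 5.67, and Cd74, the invariant chain, at 6.01 ± 2.17 and 18.8 ± 4.20. Lyz2, the macrophage lysozyme gene, was at 22.5 and 25.01 CPM, Itgax (CD11c) at 10.4 and 11.0 CPM and Cd68 at 4.94 and 7.98 CPM, none of them called. Csf1r, the receptor that macrophages need, was at 0.891 and 0.582 CPM, and Adgre1 (F4/80), Mrc1, Fcgr1 and Xcr1 had at most 3 counts in any library. The 14 summed to 39.6 to 91.5 CPM in controls and 147 to 152 CPM with butyrate, while Siglech was at 0 in all 6 libraries. B cell markers summed to 14.4 to 19.8 and 11.2 to 15.7 CPM, with Pax5 at 0 and Cd79b, the one tested of 8, not called. NK cell markers were higher for 3 of 4 tested, of 6 listed, again beside 23.5% of all genes tested. Of these 3, Klre1 and Tyrobp passed the filter through the butyrate libraries alone, Fcer1g was at 5.67 and 5.62 CPM, and Ncr1 and Klra8 had at most 1 count. The 6 summed to 9.17 to 17.5 and 19.9 to 28.01 CPM. That NK count was 1 without control replicate 1, 1 without butyrate replicate 2, and 1 under a filter of 5 CPM. Granulocyte and mast cell markers summed to 5.37 to 21.1 and 4.81 to 34.6 CPM. Erythroid markers summed to 0.185 to 0.899 and 1.72 to 26.2 CPM, highest in butyrate replicate 3. Trdc, a gamma delta T cell marker, was called lower, at 439 and 168 CPM, and Sox13, the other one tested, was not called. Control replicate 3, which held most control counts of Cd4, had the highest control sums for several of these marker sets. They were 91.5 CPM for macrophage and dendritic cell, 21.1 for granulocyte and mast cell, 19.8 for B cell and 17.5 for NK cell markers. Gamma delta markers summed to 459, 407 and 461 CPM in control replicates 1, 2 and 3, and the erythroid sum was highest in control replicate 1, at 0.899 CPM. The part of such cells in the Cd4 result was not tested.

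The genes beside Cd4 were looked at over 5 counted genes on each side, a window chosen after the values of the nearest had been seen. Gpr162, an orphan receptor gene, lies on the same minus strand (124858444 to 124864195), and its 5' end is 498 bases from the 3' end of Cd4. It had 0, 2 and 3 counts without butyrate and 39, 34 and 32 with it. Like Cd4, it passed the filter through its butyrate libraries alone. Means were 0.286 ± 0.254 and 6.32 ± 0.770 CPM (log2 fold change 4.34, SE 0.478, adjusted p = 0.000195 by edgeR). Its summed counts differed 21.6-fold (interval 8.96 to 67.8), or 34.5-fold without control replicate 3 (9.32 to 289). On the other side lies Lag3 (124904359 to 124912434), a paralogue of Cd4 that encodes an inhibitory receptor for class II. Lag3 stood at 101, 71.2 and 66.2 CPM in the controls and at 181, 130 and 115 CPM with butyrate, without overlap. That is a rise of 0.84 on the log2 scale (SE 0.199, adjusted p = 0.00840).

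Not every neighbour of Cd4 went up. Cops7a rose by 0.40 on the log2 scale and Cdca3, a cell cycle gene, fell by 0.87. Usp5 was called at -0.22 (adjusted p = 0.0384), a call lost when any library but butyrate replicate 2 was left out, with values of -0.22 to -0.20 (adjusted p = 0.0859 to 0.122). It was lost as well under upper quartile scaling (-0.14), the filter of 5 CPM (-0.20) and DESeq2 (-0.22). Mlf2 stood at 0.18 and was called only under upper quartile scaling, at 0.26. Ptms stood at -0.43 (adjusted p = 0.0563) and was called with the replicate block, at -0.45 (adjusted p = 0.00218). It was called as well in DESeq2, in limma voom, with no filter, without control replicate 2, at -0.52 (adjusted p = 0.0449), and without butyrate replicate 1, at -0.64 (adjusted p = 0.00485). Gnb3, P3h3 and A230083G16Rik had too few counts to be tested. The sources used here do not give the strand setting of the counting.

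**Figure D2:**
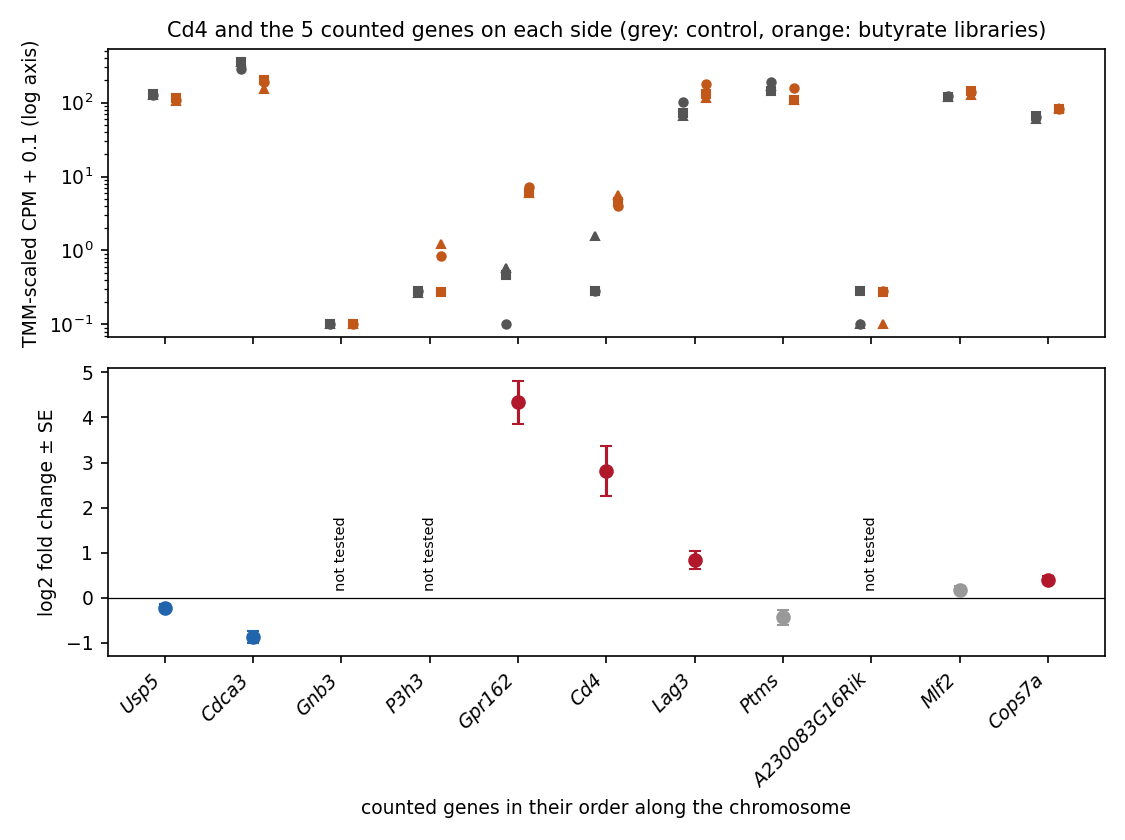
Cd4 and the 5 counted genes on each side in their order along the chromosome: TMM-scaled CPM plus 0.1 in each library (top, log axis; circles, squares and triangles are replicates 1, 2 and 3) and log2 fold change with SE (bottom; red higher, blue lower, grey not called). Gpr162 is at 4.34, Cd4 at 2.82 and Lag3 at 0.84, the first 2 tested only through their butyrate counts, while Cdca3 fell and Ptms was not called.

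Zbtb7b, the zinc finger factor that specifies CD4 T cells, was already well expressed in the control cultures (gene 22724, chromosome 3, 89377644 to 89393673). It stood at 77.9, 65.3 and 66.2 CPM without butyrate and at 122, 120 and 110 CPM with it. Every butyrate library was above every control. The mean rose from 69.8 ± 7.06 to 117 ± 6.52 CPM, a 1.68-fold difference (log2 fold change 0.75, SE 0.0961, adjusted p = 0.000403). Runx3, its opponent in the CD8 lineage, stood at 255 ± 7.92 and 266 ± 9.91 CPM and was not called (log2 fold change 0.06, adjusted p = 0.534). Per kilobase of exon, Zbtb7b was at 24.5% ± 3.21 of Runx3 in controls and 39.4% ± 3.58 with butyrate. The log2 count ratio differed by 0.69 (exact permutation p = 0.1). The next gene, Lenep, stood at a log2 fold change of 0.01 and was not called. Dcst2 on the other side had at most 1 count in a library, and the overlapping lncRNA gene Gm15417 at most 6. The paralogue Zbtb7a fell slightly, from 181 ± 4.65 to 150 ± 12.6 CPM (-0.28 on the log2 scale, adjusted p = 0.0263). That call was lost under upper quartile scaling (-0.19, adjusted p = 0.0872) and when any library but butyrate replicate 1 was left out (-0.28 to -0.23, adjusted p = 0.0577 to 0.0890).

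Runx1 binds DNA with Cbfb and acts at the Cd4 silencer in immature thymocytes (gene 12394, chromosome 16, 92601466 to 92826074). It stood at 19.4, 18.0 and 19.3 CPM in the controls and at 9.99, 6.71 and 9.61 CPM with butyrate. The control libraries lay close together and all butyrate libraries were below them. The mean fell from 18.9 ± 0.801 to 8.77 ± 1.80 CPM, 2.16-fold lower (log2 fold change -1.11, SE 0.170, adjusted p = 0.000936). Runx1 was the scarcer RUNX gene: per kilobase it was at 3.09% ± 0.219 of Runx3 without butyrate and 1.37% ± 0.274 with it. The log2 count ratio of Runx1 to Runx3 differed by -1.18 (exact permutation p = 0.1). Runx2, the third paralogue, stood at 91.7 ± 13.3 and 110 ± 4.59 CPM (log2 fold change 0.26, adjusted p = 0.0820). It was called with the replicate block at 0.27 (adjusted p = 0.0294), under upper quartile scaling at 0.35 (adjusted p = 0.0304) and without control replicate 3 at 0.37 (adjusted p = 0.0376).

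Cbfb, the shared partner subunit of all RUNX factors, fell as well. Its values were 308, 377 and 365 CPM in the controls and 196, 246 and 219 CPM with butyrate, which did not overlap. Mean Cbfb fell from 350 ± 37.1 to 220 ± 24.7 CPM (-0.67 on the log2 scale, SE 0.113, adjusted p = 0.00156).

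Gata3 is needed for CD4 T cell development and directs type 2 helper cells (gene 14462, chromosome 2, 9857078 to 9887953). It stood at 97.4, 64.5 and 71.4 CPM without butyrate and at 59.0, 35.8 and 34.6 CPM with it. The first replicate was the highest of its group in both, and the groups did not overlap. The mean fell from 77.8 ± 17.3 to 43.1 ± 13.8 CPM, 1.81-fold lower (log2 fold change -0.85, SE 0.223, adjusted p = 0.0131). Without butyrate replicate 2 the call was lost (-0.73, adjusted p = 0.0543). Against Tbx21, the type 1 factor, Gata3 stood per kilobase at 27.1% ± 5.82 without butyrate and 15.6% ± 5.07 with it, and the log2 count ratio differed by -0.82 (exact permutation p = 0.1). Tbx21 itself was at 179 ± 3.12 and 173 ± 7.78 CPM and was not called. The overlapping lncRNA genes 4930412O13Rik and 9230102O04Rik had at most 6 counts in any library.

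Bcl11b, which shuts off progenitor and innate programmes in developing T cells, was lower with butyrate (gene 58208, chromosome 12, 107910403 to 108004145). It stood at 166, 221 and 201 CPM in the controls and at 109, 125 and 110 CPM with butyrate. The lowest control was above the highest butyrate library. The mean fell from 196 ± 27.9 to 115 ± 8.74 CPM, 1.71-fold lower (log2 fold change -0.77, SE 0.116, adjusted p = 0.000855). Its neighbour Setd3, a methyltransferase gene, stood at a log2 fold change of 0.004 and was not called.

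Satb1, a chromatin organiser of thymocytes, varied widely within each group (gene 20230, chromosome 17, 51736187 to 51833290). It stood at 497, 394 and 292 CPM without butyrate and at 293, 209 and 143 CPM with it. Control replicate 3 and butyrate replicate 1 were level, so the groups overlapped. Group means were 394 ± 103 and 215 ± 75.2 CPM (log2 fold change -0.87, SE 0.259, adjusted p = 0.0225). The call was lost in robust edgeR (adjusted p = 0.0574) and without control replicate 1 (-0.66, adjusted p = 0.0740), control replicate 2 (-0.87, adjusted p = 0.0548), butyrate replicate 2 (-0.85, adjusted p = 0.0701) or butyrate replicate 3 (-0.65, adjusted p = 0.0534). Within replicate numbers Satb1 was lower by similar amounts, -0.76, -0.92 and -1.03 on the log2 scale. With the replicate block its adjusted p was 4.97e-05 at a log2 fold change of -0.90.

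Myb, a factor of thymocytes and of dividing progenitors, showed the smallest p of the 8 tested (gene 17863, chromosome 10, 21124930 to 21160984). It stood at 29.7, 36.5 and 38.8 CPM in the controls and at 107, 98.0 and 131 CPM with butyrate. The lowest butyrate library was far above the highest control. The mean rose from 35.0 ± 4.72 to 112 ± 17.0 CPM, 3.19-fold higher (log2 fold change 1.67, SE 0.139, adjusted p = 6.13e-05). Over the 15 alternatives its log2 fold change ran from 1.55 to 1.77. Ahi1, the next gene, rose too, from 22.8 to 38.1 CPM (0.73 on the log2 scale, adjusted p = 0.0123). Of the paralogues, Mybl1 was not called. Mybl2 was called at 0.38 (adjusted p = 0.0389), a call lost without control replicate 1 (0.34, adjusted p = 0.0913), control replicate 3 (0.40, adjusted p = 0.0712), butyrate replicate 1 (0.26, adjusted p = 0.115) or butyrate replicate 2 (0.37, adjusted p = 0.0958).

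Ets1, the founding ETS factor and the most abundant of the 9 per kilobase, was not called (gene 23871, chromosome 9, 32636241 to 32757820). It stood at 751, 687 and 600 CPM without butyrate and at 804, 772 and 671 CPM with it. The groups overlapped, at means of 679 ± 75.8 and 749 ± 69.7 CPM (log2 fold change 0.14, SE 0.111, adjusted p = 0.327). Across the alternatives its log2 fold change ran from 0.07 to 0.23 and none called it.

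Foxp3 was at the limit of detection (gene 20371, chromosome X, 7579676 to 7595243). It had 2, 0 and 2 counts in the controls and 2, 2 and 1 in the butyrate libraries, all at or under the 3-count floor. Means were 0.228 ± 0.198 and 0.300 ± 0.1002 CPM, so a difference was not detectable at this depth and no fold is given. Flicr, an lncRNA gene that overlaps Foxp3, had 6, 6 and 7 counts without butyrate and 3, 1 and 2 with it, too few to be tested. Ccdc22, which also overlaps Foxp3, was not called (log2 fold change 0.32, adjusted p = 0.277).

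**Figure D3:**
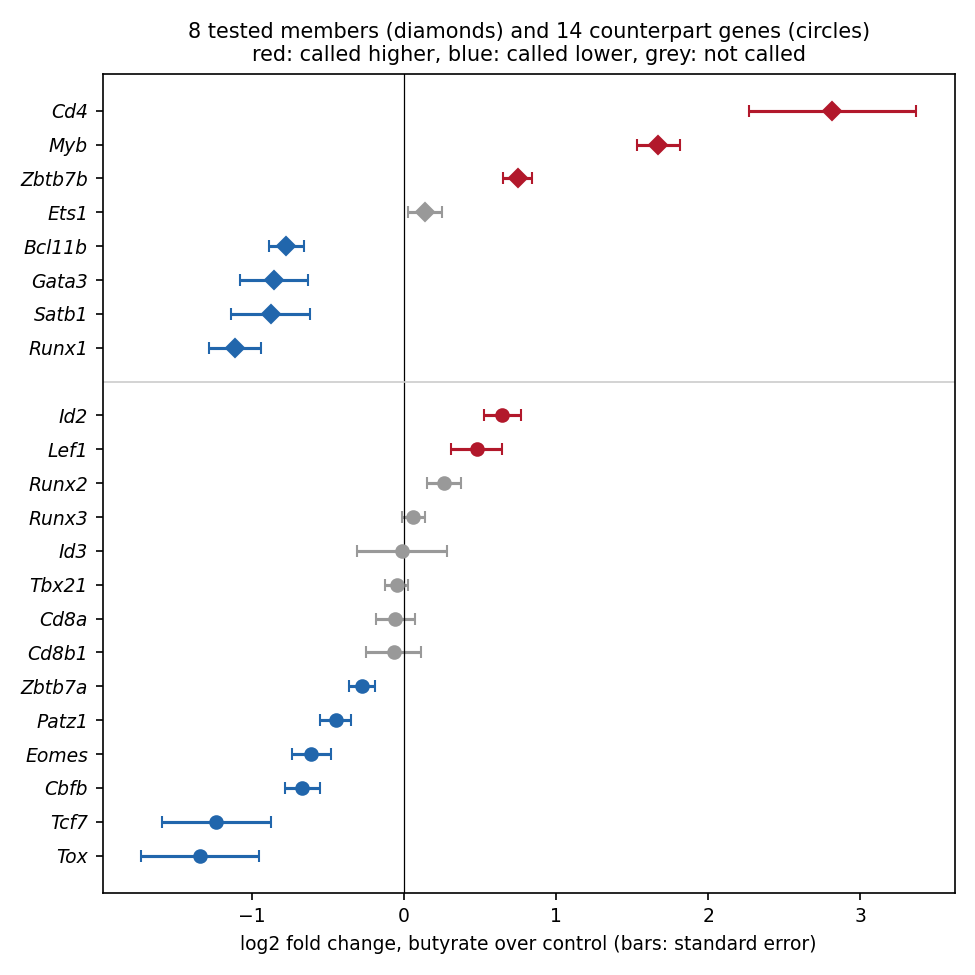
Log2 fold change, butyrate over control, with SE for the 8 tested members (diamonds) and 14 counterpart genes named whatever they showed (circles); red is higher, blue lower and grey not called. Members range from -1.11 (Runx1) to 2.82 (Cd4), while Cd8a, Cd8b1, Runx3 and Tbx21 lie at -0.07 to 0.06.

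Compared per kilobase of exon, the order of the 9 changed with butyrate. In the controls it ran Ets1 at 80.1 CPM per kilobase, Bcl11b at 24.2, Satb1 at 20.7, Gata3 at 19.6, Zbtb7b at 12.5, Myb at 3.92, Runx1 at 1.57, Cd4 at 0.151 and Foxp3 at 0.0498. Bcl11b and Satb1, Satb1 and Gata3, and Cd4 and Foxp3 overlapped as neighbours in that order. With butyrate it ran Ets1 at 88.4, Zbtb7b at 21.0, Bcl11b at 14.1, Myb at 12.5, Satb1 at 11.3, Gata3 at 10.8, Cd4 at 1.15, Runx1 at 0.729 and Foxp3 at 0.0654. There Bcl11b and Myb, Myb and Satb1, and Satb1 and Gata3 overlapped. Zbtb7b therefore moved ahead of Bcl11b, Satb1 and Gata3 per kilobase, and Cd4 ahead of Runx1. That order rests on the length of all annotated exons of a gene. In mean CPM with butyrate Satb1 stayed above Zbtb7b, at 215 and 117, and Runx1 above Cd4, at 8.77 and 4.63. Bcl11b, at 115 CPM, and Gata3, at 43.1 CPM, were under Zbtb7b there too. The values per kilobase are levels, in which overlap means that the lowest library of one gene was under the highest of the next.

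**Figure D4:**
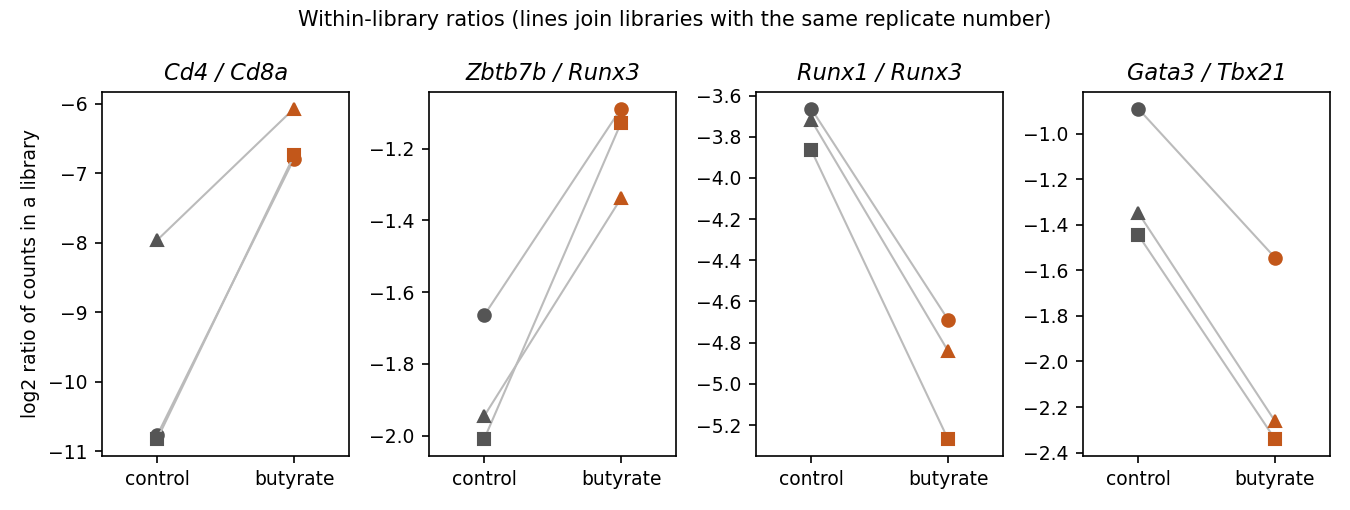
Within-library log2 ratio of counts for 4 gene pairs in control (grey) and butyrate (orange) libraries, with lines joining the same replicate number; each panel has its own vertical axis. Cd4 over Cd8a and Zbtb7b over Runx3 are higher in all 3 butyrate libraries, by 3.32 and 0.69 on average, and Runx1 over Runx3 and Gata3 over Tbx21 lower, at mean differences of -1.18 and -0.82.

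All 4 ratios, which do not depend on how libraries are scaled, gave groups that did not overlap. Each had an exact permutation p of 0.1, the smallest possible, and 0.1 after adjustment over the 4. Paired by replicate number, the exact sign-flip p was 0.25 for each, also the smallest possible. Within numbers 1, 2 and 3, Zbtb7b differed by 0.65, 0.87 and 0.73 on the log2 CPM scale and Runx1 by -0.96, -1.42 and -1.01. Cd4 differed by 4.43, 4.59 and 1.92, the smallest in the pair with control replicate 3.

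Of 10 CD8 coreceptor and lineage genes, all tested, 1 rose and 3 fell, with a median log2 fold change of -0.06. That is 40% called, below the 45.9% of all genes tested. Id2, which supports effector differentiation, rose from 407 ± 65.5 to 637 ± 43.6 CPM (0.65 on the log2 scale, adjusted p = 0.00293). Eomes, a T-box factor of CD8 memory cells, fell from 83.2 ± 9.20 to 54.6 ± 8.25 CPM (-0.61, adjusted p = 0.00491). Patz1, a zinc finger factor that binds Cd8 and Zbtb7b regulatory elements, fell from 72.9 ± 3.70 to 53.4 ± 5.95 CPM (-0.45, adjusted p = 0.00650). Cd8a, Cd8b1, Runx3 and Tbx21, all in this list, were not called.

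Of 18 partners of the members in T cell development, 17 were tested, of which 3 rose and 8 fell, at a median log2 fold change of -0.17. That is 64.7% called, beside 45.9% of all genes tested, and 2 of the 8, Bcl6 and Tox, passed the filter through their control libraries alone. Tcf12, an E protein, fell from 139 ± 3.69 to 88.2 ± 5.97 CPM (-0.66, adjusted p = 0.000349). Bcl6, the repressor that specifies follicular helper cells, stood at 6.65 ± 0.471 and 1.64 ± 1.31 CPM (-2.02, adjusted p = 0.00434), or at -2.87 without butyrate replicate 1. The count of higher genes was 1 without control replicate 2 and 1 without butyrate replicate 2. Tcf7, the TCF1 gene, stood at 346, 207 and 150 CPM in controls and 141, 101 and 56.2 CPM with butyrate, without overlap (-1.23, adjusted p = 0.0205). Its call was lost in robust edgeR (adjusted p = 0.0747) and without control replicate 1 (-0.83, adjusted p = 0.0656), butyrate replicate 2 (-1.25, adjusted p = 0.0607) or butyrate replicate 3 (-0.95, adjusted p = 0.0503).

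Tox, needed for CD4 lineage development, was called at -1.34, with 3.85 ± 1.13 and 1.48 ± 0.676 CPM (adjusted p = 0.0207). That was lost without control replicate 2 (-1.10, adjusted p = 0.0747), butyrate replicate 1 (-1.25, adjusted p = 0.0580) or butyrate replicate 3 (-1.09, adjusted p = 0.0668). Lef1, the relative of Tcf7, was called in the opposite direction, at 0.48 from 31.3 ± 2.88 and 43.5 ± 10.2 CPM (adjusted p = 0.0414). It was lost without control replicate 1, 2 or 3 (0.54, 0.52 and 0.41, adjusted p = 0.0558, 0.0778 and 0.116) or butyrate replicate 2 (0.27, adjusted p = 0.126). Egr1, an early response gene, was called at 0.96 (adjusted p = 0.0398) but stood at 48.5, 120 and 54.3 CPM with butyrate, and the value without butyrate replicate 2 was 0.43 (adjusted p = 0.0945). Its call was lost as well without control replicate 2 (0.83, adjusted p = 0.121) or control replicate 3 (0.98, adjusted p = 0.0835) and in DESeq2, limma voom and robust edgeR (adjusted p = 0.0595 to 0.113). Id3 was at 51.1 ± 11.3 and 50.5 ± 21.1 CPM and was not called.

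Of 21 paralogues of the members, 16 were tested, of which 3 rose and 4 fell, and 5 rose with the replicate block. The 43.75% called was near the 45.9% of all genes tested. The ETS genes did not move as one: Etv6 rose from 63.3 ± 5.23 to 94.5 ± 3.86 CPM (0.58, adjusted p = 0.00100). Elf1 fell from 352 ± 15.3 to 228 ± 11.7 CPM (-0.63, adjusted p = 0.000401) and Elf2 from 105 ± 1.73 to 66.9 ± 2.43 CPM (-0.64, adjusted p = 0.000270). Elf4, a further ETS gene, fell from 462 ± 3.63 to 371 ± 27.4 CPM (-0.32, adjusted p = 0.0134). Fli1, Ets2 and Gabpa were not called.

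Corepressors and chromatin remodellers that act at the Cd4 and Zbtb7b silencers were listed with Cbfb, the RUNX partner subunit. Cbfb is counted as lower in the CD8 lineage and partner lists as well. Of the 16 listed, all tested, 3 were higher and 6 lower, Cbfb among the 6 (median log2 fold change -0.11). That is 56.25% called, beside 45.9% of all genes tested, of which 22.5% were lower. The count of lower genes was 3 under upper quartile scaling, 3 without control replicate 2 and 3 without butyrate replicate 3. The Groucho family corepressors, which RUNX factors recruit, went in both directions. Tle2, which passed the filter through its butyrate libraries alone, stood at 1.06 ± 0.229 and 7.42 ± 1.81 CPM (2.79, adjusted p = 0.000248). Tle3 rose from 120 ± 12.7 to 189 ± 8.30 CPM (0.66, adjusted p = 0.000737). Tle4 fell from 71.8 ± 7.09 to 23.0 ± 6.65 CPM (-1.64, adjusted p = 0.000244). Hdac1, a deacetylase gene, rose from 80.1 ± 4.01 to 112 ± 2.34 CPM (0.49, adjusted p = 0.00115), and Ncor1, a nuclear corepressor, fell from 265 ± 3.57 to 169 ± 5.90 CPM (-0.65, adjusted p = 0.000216).

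Genes of the CD4 lineages, Cd4 and Zbtb7b included, were measured next. Of 12 CD4 helper genes, 8 were tested, with 3 higher, Cd4 and Zbtb7b among them, and 1 lower, or 2 lower with the replicate block and 2 lower without control replicate 1. That is 50% called, near the 45.9% of all genes tested. Cd4 passed the filter through its butyrate libraries alone, and of the 5 that passed in both groups 2 rose and 1 fell. Maf, a factor of cytokine expression in helper cells, rose from 19.6 ± 5.70 to 62.9 ± 5.24 CPM (1.68, adjusted p = 0.000174). Tnfsf8, the CD30 ligand, fell from 56.1 ± 6.04 to 21.2 ± 3.04 CPM (-1.41, adjusted p = 0.000104). Il21, Il17a, Il17f and Cxcr5 did not pass the filter.

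Of 13 regulatory T cell genes, 11 were tested, and 8 rose while 1 fell, at a median log2 fold change of 1.46, although Foxp3 was at its floor. That is 81.8% called, beside 45.9% of all genes tested. Of the 8, Izumo1r and Cd83 passed the filter through their butyrate libraries alone, and of the other 9 tested 6 rose and 1 fell. The median and the 81.8% include Izumo1r and Cd83, at 2.75 and 2.74 on the log2 scale. The replicate block gave 9 higher. Several of these genes also respond to T cell activation. Il2ra, the IL-2 receptor alpha chain, rose from 690 ± 37.4 to 2014 ± 311 CPM (1.54, adjusted p = 5.06e-05). Tnfrsf4 (OX40) rose from 4.04 ± 1.502 to 24.5 ± 1.85 CPM (2.59, adjusted p = 6.50e-05) and Tigit from 55.6 ± 9.04 to 153 ± 20.3 CPM (1.46, adjusted p = 0.000111). Ikzf2 (Helios) fell from 80.4 ± 5.72 to 52.2 ± 2.52 CPM (-0.62, adjusted p = 0.000681).

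Of 12 genes linked to Gata3 in type 2 cells, 7 were tested, with 5 higher and 1 lower, while Gata3 itself fell. That is 85.7% called, beside 45.9% of all genes tested. The count of higher genes was 3 in robust edgeR and 3 without control replicate 2, butyrate replicate 2 or butyrate replicate 3, and it was 8 with no filter. Ccr4, a chemokine receptor, rose from 21.7 ± 11.4 to 104 ± 11.9 CPM (2.27, adjusted p = 0.000461) and Pparg, a nuclear receptor, from 10.5 ± 0.513 to 43.3 ± 13.6 CPM (2.04, adjusted p = 0.000185). Stat6, the IL-4 signal transducer, fell from 188 ± 9.69 to 137 ± 12.8 CPM (-0.45, adjusted p = 0.00397). Il4, Il5 and Il13 did not pass the filter. Il13 had 1, 0 and 1 counts without butyrate and 28, 5 and 50 with it. Il4 had 1, 0 and 1 counts against 9, 4 and 8, and Il5 at most 1 in a library.

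Progenitor and innate genes listed as shut off when thymocytes commit to the T lineage, a step that needs Bcl11b, numbered 16. Only 6 passed the filter, and all 6 rose, beside 23.5% of all genes tested. Lyl1 and Hhex passed through their butyrate libraries alone, and the 10 left out cannot be counted, so the number describes those 6 only. Id2 and Nfil3 were not silent in the controls, at 407 and 118 CPM. Id2, Nfil3 and Klrb1c also stand in other lists given here. Nfil3 rose from 118 ± 27.5 to 302 ± 28.8 CPM (1.36, adjusted p = 0.000244) and Klrb1c (NK1.1) from 3.39 ± 1.32 to 10.9 ± 1.87 CPM (1.66, adjusted p = 0.00161). Lyl1, a progenitor factor, stood at 0.599 ± 0.445 and 3.98 ± 0.896 CPM (2.72, adjusted p = 0.00141, or 3.47 without control replicate 2). Tal1, Spi1, Bcl11a and Zbtb16 were among the 10 not tested. The macrophage and NK cell marker sums given beside Cd4 were higher in the same libraries, through Itgam, H2-Ab1, Cd74 and Klrb1c above all, while Lyz2, Itgax, Fcer1g and Ncr1 were level or near 0. Their part in these values was not tested.

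T cell receptor and CD3 genes, which Bcl11b, Ets1 and Runx factors help to express, were listed with Cd2, Cd5, Cd28, Thy1, Lck and Zap70. The list gave 5 lower, Lck and Zap70 among them, and 0 higher of 13 tested in edgeR, at a median log2 fold change of -0.45. That is 38.5% called, below the 45.9% of all genes tested, of which 22.5% were lower. With the replicate block 8 were lower and 1 higher, and 8 were lower without butyrate replicate 1 or with no filter. Trbc1 fell from 262 ± 44.8 to 107 ± 5.89 CPM (-1.29, adjusted p = 0.000126). Cd3e fell from 314 ± 27.4 to 206 ± 10.05 CPM (-0.61, adjusted p = 0.000816) and Cd247, the zeta chain, from 327 ± 14.4 to 213 ± 9.08 CPM (-0.62, adjusted p = 0.000401). Trac and Trbc2 were not called.

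**Figure D5:**
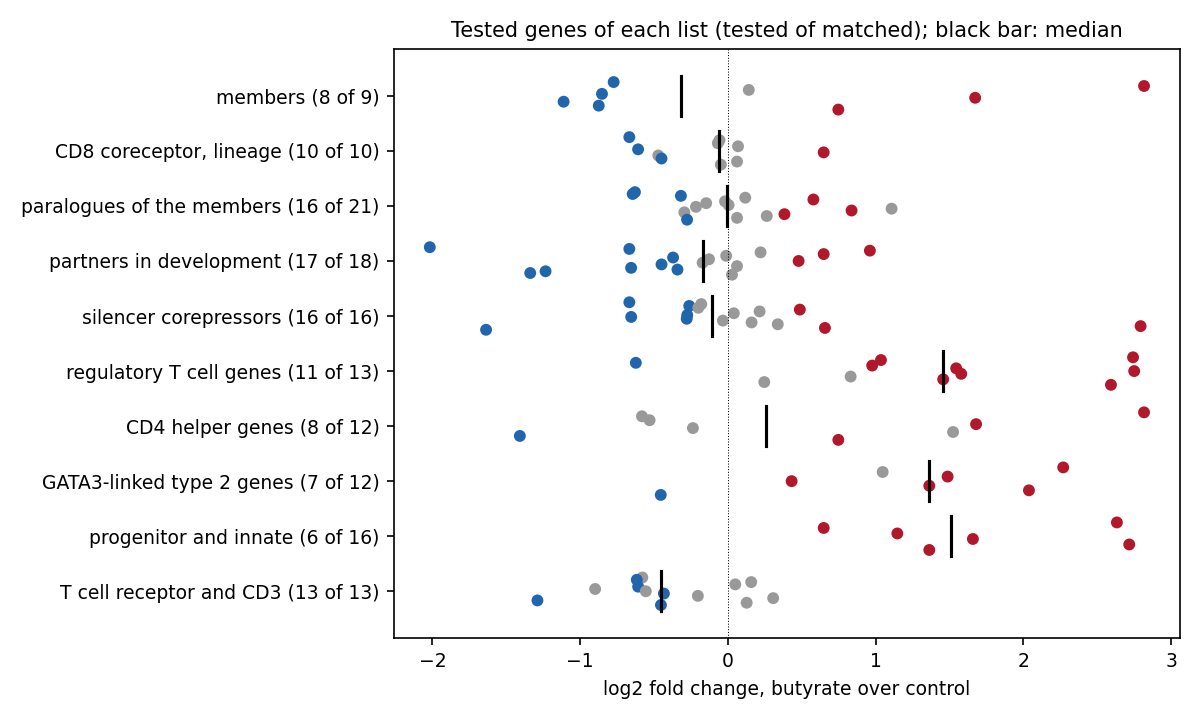
Log2 fold change of every tested gene in each list (dots; red higher, blue lower, grey not called), with the median as a black bar and the number tested of those matched in brackets. The members span -1.11 to 2.82. Medians lie at -0.06 for CD8 lineage genes, 1.46 for regulatory T cell genes and -0.45 for the T cell receptor and CD3 list. Cd4 and, among regulatory T cell genes, Izumo1r and Cd83 were tested only through their butyrate counts. The T cell receptor and CD3 list also holds Cd2, Cd5, Cd28, Thy1, Lck and Zap70.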

How the data were processed

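RNA-seq of 3 control and 3 butyrate libraries was used. The authors deposited raw read counts per gene, and edgeR, Subread, featureCounts, Picard, TopHat, CASAVA and the build mm10 are listed, with no versions, per the submitters' processing notes. Per the labels' protocols, libraries were made with an Illumina TruSeq kit from 1 µg of Trizol-extracted RNA. Not given in the sources used here are the strand setting and the handling of reads shared by near-identical or overlapping genes, so counts of such genes are uncertain. Columns were matched to samples by their labels. Of 27179 gene numbers, 25275 were named from RefSeq (GRCm38.p6) and 18 from GENCODE, and 1886 without a name stayed in the tests.

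The comparison of butyrate and control libraries used the quasi-likelihood test of edgeR 4.0.16 under R 4.3.3, after TMM scaling and filterByExpr, and Benjamini-Hochberg adjustment over the 11740 genes left. Dividing the log2 fold change by the root of its F statistic gave the SE. On simulated counts the test recovered 94% of genes changed by 1 on the log2 scale and 100% of those changed by 2, with 8 false calls. Those counts held a much smaller share of changed genes than the 45.9% called here. The changed genes all averaged above 5 CPM, a level Cd4 did not reach. The spread was set the same for every gene, and whether it matches these libraries was not tested. The figures therefore describe the simulated counts only and not the calls given here. Ratios used counts plus 0.5 and exact permutation tests (scipy 1.17.1). Levels per kilobase used the length covered by all GENCODE exons of a gene, which need not be that of the transcripts expressed. No molecular identifiers are mentioned, so intervals cover counting error only.

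The members and the 16 gene lists (184 of 188 entries matched) were chosen with earlier results of these data known. Named in the text are all members, 14 counterparts, up to 3 called genes per direction and list with the smallest p (the most abundant tested gene where none was called), the members' nearest genes, and the 3 genes most alike in pattern to selected members. Within groups, libraries differed beyond sampling noise, at a chi-square of 5.53 to 11.4 per degree of freedom. After subtraction of group means, libraries with the same replicate number correlated at 0.362, 0.196 and 0.348 across genes, and those with different numbers at -0.299 to -0.0706. The numbers were therefore taken to pair the samples, from the data and not from the labels. Subtracting group means ties these correlations together, so the negative ones are not separate evidence. Calls in the text come from the fit without pairing unless the replicate block is named. Alternatives were scaling by RLE, by upper quartile or by total count, other filters, DESeq2 (1.42.0), limma voom (3.58.1), robust edgeR, the replicate block, each library left out in turn and, for ratios, 0 or 2 counts added.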

Additional observations from a re-analysis of the deposited data

How the results depend on the processing

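Cd4, Zbtb7b, Myb, Runx1 and Bcl11b were called in the same direction in every one of the 15 alternatives that tested them, and a filter of 5 CPM in 3 libraries left Cd4 untested. Gata3 and Satb1 lost their calls only where the report says so. The replicate block changed no member's call and gave 3220 genes higher and 3095 lower over all genes tested, against 2756 and 2637 without it. Beside the list counts named in the report, it moved none of the others given there by over 1.5 times. With a library left out, 2335 to 2586 genes were higher and 2075 to 2544 lower.

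Estimates that changed sign were all of genes not called. Under upper quartile scaling Cd8a stood at 0.025, Cd8b1 at 0.013, Tbx21 at 0.034 and Id3 at 0.069 on the log2 scale. Id3 stood at 0.0012 under total count scaling and at 0.015 under the filter of 5 CPM. Cpa3, a mast cell gene, stood at 0.18 and at -0.059 in limma voom, and with no filter Lenep stood at -0.025 and Setd3 at -0.034. With one library left out, values ran from -0.15 to 0.037 for Cd8a, -0.25 to 0.072 for Cd8b1, -0.25 to 0.29 for Id3 and -0.38 to 0.083 for Cd79b. They ran from -1.02 to 0.89 for Cpa3, -0.14 to 0.28 for Lenep and -0.040 to 0.035 for Setd3. The cause was not tested. Depth limits Foxp3 and the control values of Gpr162, all at or under 3 counts, and those of Cd4, with 1, 1 and 9 counts.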

Other observations

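Trdc, the constant region gene of the delta T cell receptor chain, was abundant in these cultures and fell with butyrate, from 439 ± 29.1 to 168 ± 25.7 CPM (SD, n = 3; log2 fold change -1.39, SE 0.121, adjusted p = 7.21e-05 by edgeR). It stood at 453, 406 and 459 CPM in the controls and at 181, 184 and 138 CPM with butyrate, without overlap. Sox13, the other gamma delta marker counted, was not called.

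The genes most like 4 of the members in pattern were found by Pearson's r of log2 CPM over the 6 libraries, among 9032 genes that averaged 10 CPM or more. The 6 libraries fall into 2 groups, so r carries the group difference, and it is given as a description. For Cd4 the nearest were Gpc1 (r = 0.996), Pdcd1lg2 (r = 0.994) and Havcr2 (r = 0.992). Havcr2, the TIM-3 receptor, stood at 39.7 CPM in controls and 243 CPM with butyrate. For Zbtb7b they were Pcbp4, Junb and Ptpn13, each at r = 0.998, with Junb, an AP-1 factor, at 150 and 289 CPM. For Myb they were Edem2 (r = 0.999), Sord (r = 0.998) and S100a11 (r = 0.997). For Gata3 they were Selplg (r = 0.996), Fancg (r = 0.992) and C2cd2 (r = 0.992). Foxp3 had too few counts for such a comparison.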
